A study of Homo sapiens with 9 samples.

Results

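Secreted antagonists of WNT signaling were examined in RKO cells, a colorectal cancer (CRC) cell line, after UHRF1 depletion, histone deacetylase (HDAC) inhibition, both together, or treatment with 5-aza-dC (5-aza-2'-deoxycytidine, which blocks DNA methyltransferases). The genes were SFRP1, SFRP2, SFRP4, SFRP5, DKK1, DKK2, DKK3, DKK4 and WIF1, chosen by name: every non-control probe that the array files assign to them was used, which gave 11 probes in 20 spots. They are 9 of the 36337 gene names on the array. Their mRNA was measured on 9 Agilent 1-colour expression arrays (SurePrint G3 Human GE v2). There were 2 arrays each of siCONT (control siRNA, mock), siUHRF1 (siRNA against UHRF1, mock), siCONT + TSA and siUHRF1 + TSA. The siRNAs were left on for 72 h, after which ethanol (mock) or 300 nM trichostatin A (TSA, an HDAC inhibitor) was added for 24 h. In both siUHRF1 groups replicate 1 received siUHRF1-1 and replicate 2 received siUHRF1-2, so the spread within these groups includes the difference between the siRNAs. The remaining array came from untransfected cells exposed for 72 h to 5-aza-dC at 1 µM. No label says whether replicates were separate cultures, and p-values therefore measure only the spread between these arrays.

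WNT ligands bind frizzled receptors together with the co-receptors LRP5 and LRP6, which stabilizes β-catenin and switches on TCF/LEF target genes. SFRP proteins carry a frizzled-like domain and bind the ligands outside the cell, as does WIF1 through a different domain. DKK1, DKK2 and DKK4 bind LRP5 and LRP6, with KREMEN proteins as further partners, whereas DKK3 is the divergent member of its family. Promoter methylation of several of these genes is well known in colorectal tumors, and UHRF1 is the protein that guides maintenance methylation to newly copied DNA.

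The promoters of DKK1 and SFRP2 are shown because the study designed bisulfite assays for both genes, and because these arrays measured DKK1 on every array but SFRP2 on none. The 250 bases before the RefSeq start site (GRCh38.p14) are printed 5′ to 3′, with each CG dinucleotide, the site of DNA methylation, in capitals. DKK1 lies on the plus strand at chr10:52314031-52314280 and SFRP2 on the minus strand at chr4:153789084-153789333.
DKK1: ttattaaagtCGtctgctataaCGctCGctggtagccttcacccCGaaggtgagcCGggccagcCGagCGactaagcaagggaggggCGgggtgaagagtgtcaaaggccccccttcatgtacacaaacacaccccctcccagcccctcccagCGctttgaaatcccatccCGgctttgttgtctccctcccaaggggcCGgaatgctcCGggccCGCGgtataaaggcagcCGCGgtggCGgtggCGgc
SFRP2: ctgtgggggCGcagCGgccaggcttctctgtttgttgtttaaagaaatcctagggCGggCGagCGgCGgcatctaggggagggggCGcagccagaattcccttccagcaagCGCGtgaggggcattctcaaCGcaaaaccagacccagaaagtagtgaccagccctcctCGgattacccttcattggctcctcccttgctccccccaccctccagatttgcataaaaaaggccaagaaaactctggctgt

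The DKK1 promoter held 18 CG dinucleotides, and 36.8% of the 35116 promoters in the RefSeq table held at least as many over the same length. The stretch that the study's DKK1 assay reads is 19 bases long with 5 CG, and it matched chr10:52314263-52314281, from base -18 to the start site itself. The SFRP2 promoter held 11 CG, which equals the median over all promoters. The stretch of the study's SFRP2 assay, 12 bases with 4 CG, had no match in the sequence searched, so it was not placed. The table also held SFRP4 with 17 CG, SFRP5 with 21 and WIF1 with 27, and 17.7% of promoters reached the count of WIF1. The letters TATAAA, searched on both strands, occurred in the DKK1 window and in none of the other 4, against 10.72% of all promoters. The letters CTTTGAT, which TCF/LEF proteins can bind, were found on neither strand in any of the 5 windows, against 2.26% of all promoters. Only this exact string was searched, so sites with other letters were not counted. The DKK1 window holds CTTTGAA, which differs in the last letter.

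UHRF1 mRNA was measured first as a check of the labels. Its processed signal was 1816 and 1837 in siCONT and 433 and 292 in siUHRF1, and with TSA 1793 and 1860 in siCONT + TSA and 223 and 178 in siUHRF1 + TSA. Relative to siCONT, UHRF1 in siUHRF1 fell by 2.47 in log2 units (SE 0.14, limma adjusted p = 0.00238), and in siUHRF1 + TSA against siCONT + TSA it fell by 3.35 (adjusted p = 0.000132), and its second probe fell by 2.34 and 2.86. The 75th percentile of the signal lay between 245 and 338 on the 8 siRNA arrays, which shared 1 slide and 1 scan, and was 822 on the 5-aza-dC array, which had its own slide and scan. The share of probes well above background was 43.6% to 46.6% on the former and 51.6% on the latter, and no spot was saturated. Mock arrays lay in the first row of the slide and TSA arrays in the second, with siCONT in columns 1 and 2 and siUHRF1 in columns 3 and 4, so position and treatment cannot be told apart. Of 12 colorectal epithelial markers, KRT8, KRT18, CDX1 and CDX2 were above background on all 8 siRNA arrays, whereas CDH1, CDH17, VIL1 and LGALS4 were above background on none of them.

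Of the 9 genes chosen, only DKK1 was above background in any siRNA-transfected cells, and it was above background on all 8 siRNA arrays. The other 8 genes, covered by 10 probes, were at background on every siRNA array, with or without UHRF1 depletion and TSA. For comparison, 45.7% of all gene names were at background on all 8 of these arrays. In 5-aza-dC-treated cells SFRP1 and DKK3 came above background in addition to DKK1. SFRP2, SFRP4, SFRP5, DKK2, DKK4 and WIF1 were not above background on any of the 9 arrays. By RT-PCR, a different measure, the paper reports that UHRF1 depletion plus TSA restored silenced tumor suppressor genes in RKO cells. Its methods list assays for SFRP1, SFRP2, SFRP5 and DKK1. A signal at background on these arrays therefore does not show that a gene stayed silent.

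**Figure D1:**
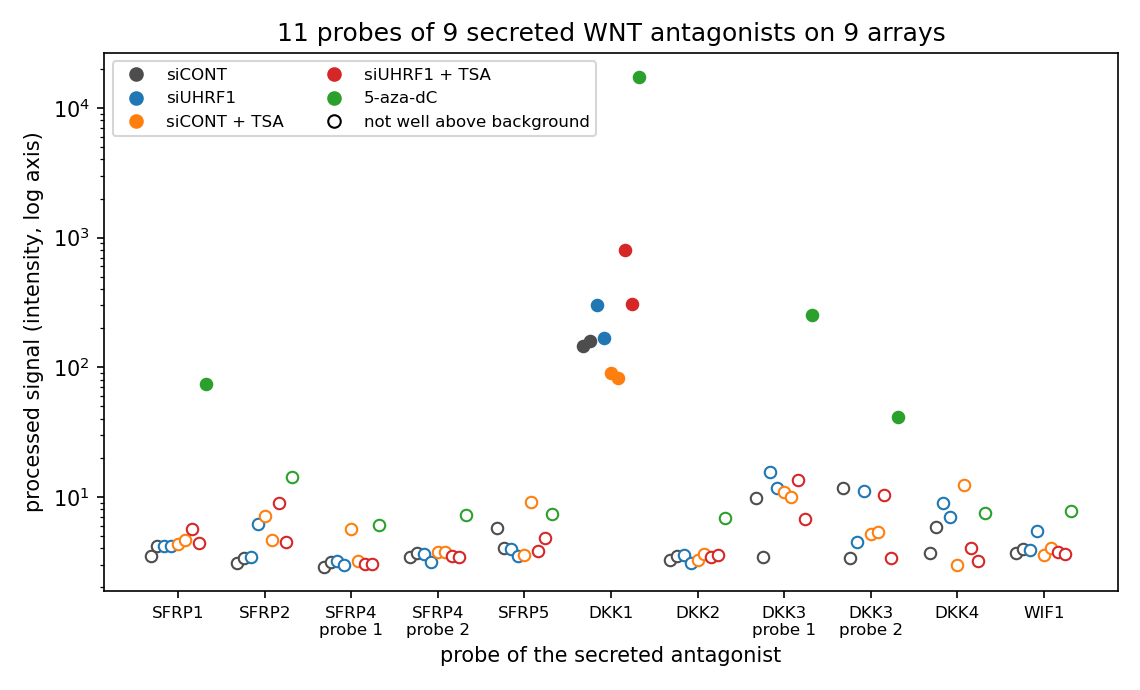
Processed signal (intensity, log axis) of the 11 probes of the 9 secreted WNT antagonists on the 9 arrays, coloured by group; filled points were well above background and open points were not, and levels cannot be compared between probes. DKK1 is filled on every array, SFRP1 and both DKK3 probes are filled on the 5-aza-dC array alone, and all other points are open.

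The DKK1 probe lies at chr10:54076687-54076746 on the plus strand (hg19, as the array files give it). The DKK1 signal was 145 and 159 in siCONT, 300.4 and 167 in siUHRF1, 89.4 and 82.5 in siCONT + TSA, 799.6 and 305 in siUHRF1 + TSA, and 17173 in 5-aza-dC. Both siUHRF1 + TSA arrays lay above all other siRNA arrays, and both siCONT + TSA arrays lay below all others. The siUHRF1 arrays lay above the siCONT arrays, although replicate 2 exceeded the higher siCONT array by little.

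**Figure D2:**
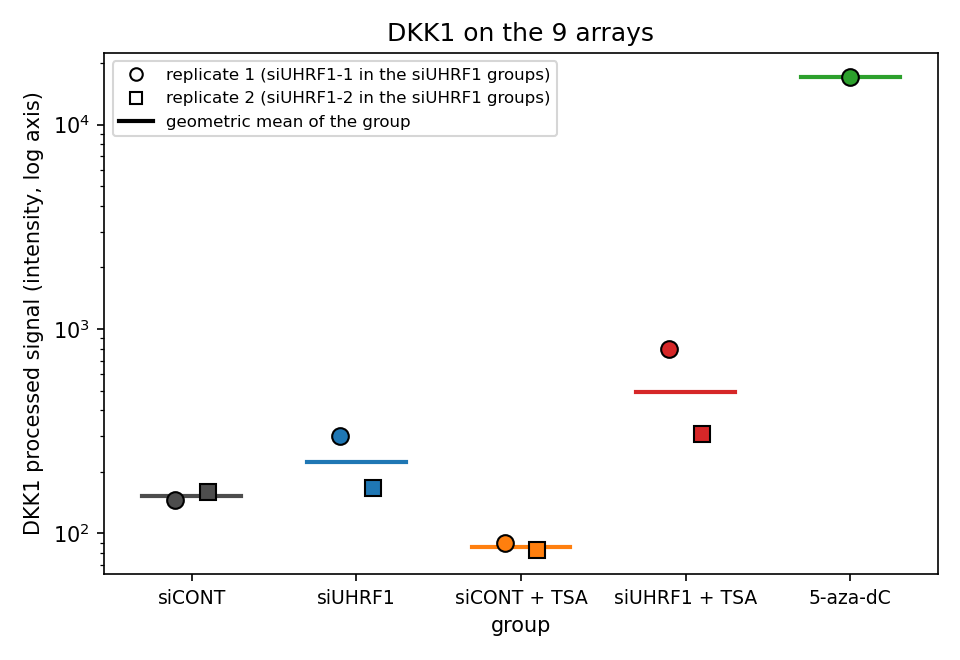
Processed signal of DKK1 (intensity, log axis) on each array by group; circles are replicate 1, squares are replicate 2 and lines are geometric means. The siUHRF1 + TSA arrays (799.6 and 305) lie above the other siRNA arrays, and the 5-aza-dC array lies at 17173.

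DKK1 rose 3.32-fold in siUHRF1 + TSA against siCONT. After each array was set to its own 75th percentile, the mean log2 level was 0.83 ± 0.95 (SD, n = 2) in siUHRF1 + TSA and -0.90 ± 0.086 (SD, n = 2) in siCONT, a difference of 1.73 (SE 0.43, 95% interval 0.70 to 2.77, limma adjusted p = 0.0330). It was the 1 gene of the 9 that could be tested, and 24.2% of the 17739 gene names tested passed the same threshold in this comparison. The direction held under all 22 alternatives tried, with differences from 1.06 to 2.41, but the adjusted p ranged from 0.00821 to 0.269 and was below 0.05 in 11 of them. The call was lost without either siCONT array (adjusted p = 0.147 without replicate 1 and 0.129 without replicate 2), without either siCONT + TSA array (0.0629 and 0.0655) and without siUHRF1 + TSA replicate 1 (difference 1.06, adjusted p = 0.0540).

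Neither treatment alone altered DKK1 past the threshold. In siUHRF1 against siCONT the DKK1 difference was 0.45 (95% interval -0.59 to 1.48, limma adjusted p = 0.858), in a comparison in which 0.643% of gene names were called. In siCONT + TSA against siCONT it was -0.64 (95% interval -1.68 to 0.39, adjusted p = 0.372), where 10.8% of gene names were called. Fitted on the arrays of these 2 groups alone, that lower level of DKK1 under TSA passed the threshold (adjusted p = 0.0139), whereas with normexp background correction the difference was -0.14 (adjusted p = 0.786). Over the 22 alternatives it ran from -0.75 to -0.14.

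When both groups received TSA, DKK1 was 5.18-fold higher with UHRF1 depletion. The log2 difference between siUHRF1 + TSA and siCONT + TSA was 2.37 (SE 0.43, 95% interval 1.34 to 3.41, limma adjusted p = 0.0403), and 3.85% of gene names were called. This call was kept in 8 of 22 alternatives, whose differences ran from 1.53 to 3.05, and it was lost without any 1 of 7 of the 8 arrays, siUHRF1 + TSA replicate 2 being the exception. Without siUHRF1 + TSA replicate 1 the difference was 1.70 (adjusted p = 0.0522). In siUHRF1 + TSA against siUHRF1 the difference was 1.28 (95% interval 0.25 to 2.32, adjusted p = 0.0938), where 16.3% of gene names were called, and it was 0.61 without siUHRF1 + TSA replicate 1 (adjusted p = 0.199) and 1.96 without replicate 2 (adjusted p = 0.0194). These comparisons share arrays and are not independent of each other.

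The effect of UHRF1 depletion on DKK1 with TSA exceeded that without TSA by 1.92 on the log2 scale (SE 0.60, 95% interval 0.46 to 3.39). The unadjusted p of this difference was 0.0179 and the adjusted p was 0.747, and 0.389% of gene names were called. It was 1.25 without siUHRF1 + TSA replicate 1, 2.60 without replicate 2 and 1.20 with normexp, and no alternative brought its adjusted p below 0.05. The order of the group means, from siCONT + TSA through siCONT and siUHRF1 to siUHRF1 + TSA, thus held 3 pairs of neighbours, and no pair differed past the threshold.

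**Figure D3:**
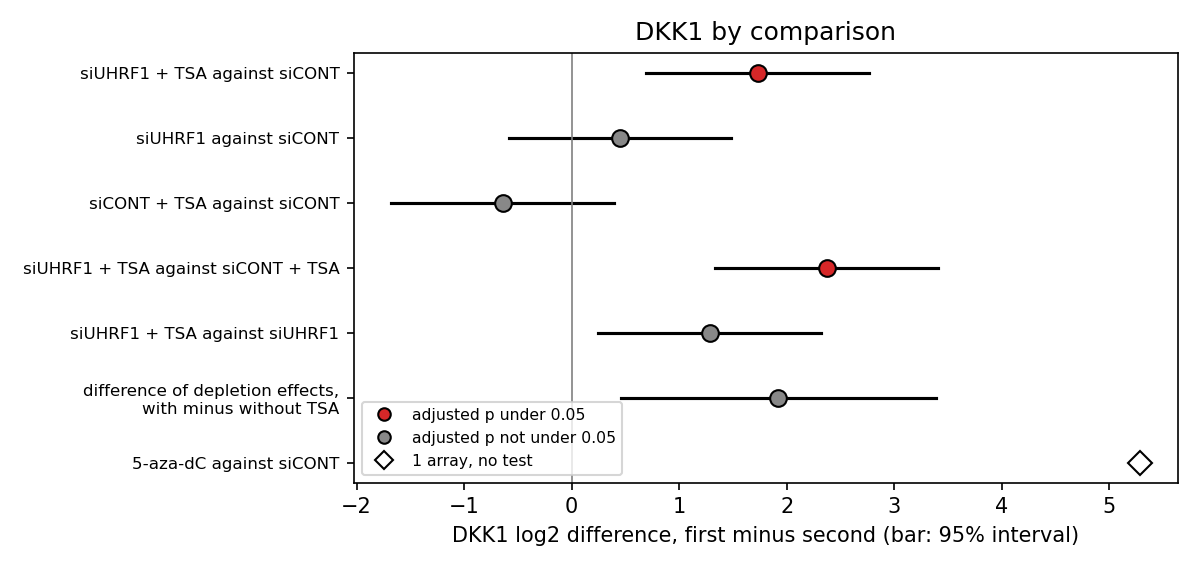
DKK1 log2 difference, first group minus second, in each comparison; bars are 95% intervals, red points passed an adjusted p of 0.05, and the diamond is the 5-aza-dC array, which had no test. The 2 red points are siUHRF1 + TSA against siCONT (1.73) and against siCONT + TSA (2.37).

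The DKK1 level was not the same on the arrays of the 2 siRNAs. DKK1 was higher with siUHRF1-1 than with siUHRF1-2 by 0.57 on the log2 scale in mock-treated cells and by 1.35 in TSA-treated cells, whereas the siCONT replicates differed by 0.12 and the siCONT + TSA replicates by 0.17. Relative to the siCONT mean, DKK1 was 2.41 higher with siUHRF1-1 plus TSA and 1.06 higher with siUHRF1-2 plus TSA. Residual UHRF1 mRNA at the brighter probe was also higher with siUHRF1-1, by 0.28 in both mock- and TSA-treated cells. The second UHRF1 probe gave the opposite order in mock-treated cells, with normalized log2 levels of -2.48 with siUHRF1-1 and -2.29 with siUHRF1-2. With TSA its levels were -2.70 and -3.11, in the same order as the brighter probe. Each siRNA had 1 array per treatment, so the difference between them was not tested.

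The genes whose levels followed DKK1 most closely over the 8 siRNA arrays were PIP4K2A (Pearson r = 0.961), THBS3 (r = 0.959) and LAMC3 (r = 0.958), among 3633 genes with a spread of at least 0.3 on the log2 scale. PIP4K2A encodes a phosphoinositide kinase, THBS3 a thrombospondin of the extracellular matrix and LAMC3 a laminin chain. LAMC3, for example, had signals of 35.3 and 31.3 in siCONT, 64.6 and 35.5 in siUHRF1, 22.8 and 22.5 in siCONT + TSA, and 70.7 and 50.4 in siUHRF1 + TSA. The arrays share treatments and siRNAs, and the correlations are given as a description.

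In 5-aza-dC-treated cells DKK1 was 39.1-fold above the siCONT mean, a log2 difference of 5.29. The 5-aza-dC level exceeded that of the siUHRF1-1 plus TSA array 7.36-fold and that of the siUHRF1-2 plus TSA array 18.8-fold. With 1 array there is no test, and slide, scan, transfection and harvest time cannot be told apart from the drug. Spike-in scaling lowered the 5-aza-dC array as a whole, with a median over gene names of -1.98 against siCONT instead of -0.09, and gave a DKK1 difference of 3.40.

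DKK3 was represented by 2 probes on the minus strand, at chr11:11984915-11984974 and chr11:11986163-11986222 (hg19). The second probe and the SFRP2 probe (chr4:154702825-154702884, minus strand) are shown as the designed sequences behind a gene that came above background with 5-aza-dC and behind a gene that did not.
DKK3 probe: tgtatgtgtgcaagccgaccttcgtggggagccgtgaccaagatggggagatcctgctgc
SFRP2 probe: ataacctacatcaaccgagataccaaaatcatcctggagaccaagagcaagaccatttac

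The first DKK3 probe had signals of 9.82 and 3.40 in siCONT, 15.7 and 11.8 in siUHRF1, 10.8 and 9.90 in siCONT + TSA, and 13.4 and 6.73 in siUHRF1 + TSA, none of them well above background, and 254 in 5-aza-dC. The second read 3.34 to 11.7 on the siRNA arrays, again at background, and 41.3 in 5-aza-dC. For a lower limit of the fold, each siCONT array was set to the dimmest signal that counted as above background on it (or to the probe's signal, if brighter). Such limits are approximate here and below, because a probe brighter than that dimmest signal can still be at background. DKK3 was then at least 6.19-fold higher in 5-aza-dC by the first probe and at least 1.01-fold higher by the second. Both probes were therefore detected only with 5-aza-dC, but the second sets almost no lower limit. After scaling, the dimmest log2 level above background was -4.88 on the 5-aza-dC array and -4.53 to -4.08 on the siRNA arrays. The second probe read -4.31 with 5-aza-dC, within that siRNA range, so its detection there alone shows no difference in level. The limit of the first probe was 1.87-fold with normexp background correction and 1.67-fold with spike-in scaling.

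SFRP1 was measured by 1 probe in 10 spots. Its mean signal was 3.51 and 4.16 in siCONT, 4.20 and 4.19 in siUHRF1, 4.33 and 4.64 in siCONT + TSA, and 5.66 and 4.38 in siUHRF1 + TSA, all at background. On the 5-aza-dC array it was 74.6, and the 9 spots used ranged from 64.6 to 91.1, above every spot used on the siRNA arrays. SFRP1 was at least 1.81-fold higher in 5-aza-dC than in siCONT. That limit depends on the scaling: it fell to 0.491 with spike-in scaling and to 0.736 with normexp, which leaves no fold, and under normexp the log2 difference turned from 2.75 to -0.22. In siCONT replicate 2, 2 of the 10 spots were left out as outliers, the brighter at 396.

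SFRP1 and DKK3 were thus 2 of the 8 antagonists at background on all siRNA arrays that came above background with 5-aza-dC, against 11.0% of the 16595 gene names at background on all siRNA arrays. Over 2-fold higher signals than in siCONT were seen in 18.8% of the 19998 gene names that passed the filter in this comparison. DKK1, DKK3 and SFRP1 met this criterion, but DKK3 and SFRP1 passed the filter only through the 5-aza-dC array, so their count is no support for a change.

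Signals of the other antagonists stayed low on every array. SFRP2, which binds WNT ligands, ranged from 3.09 to 8.93 on the siRNA arrays and read 14.3 with 5-aza-dC. The 2 SFRP4 probes ranged from 2.89 to 5.69 and from 3.15 to 3.77, and read 6.06 and 7.21 with 5-aza-dC. SFRP5 ranged from 3.50 to 9.19 and read 7.32. DKK2 ranged from 3.11 to 3.64 and read 6.89. DKK4 ranged from 2.98 to 12.4 and read 7.49. WIF1 ranged from 3.57 to 5.43 and read 7.72. The lowest signal called above background was 12.9 to 15.1 with siRNA and 28.0 with 5-aza-dC, so transcripts below this level were not detectable, and no change can be read from the values under it.

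The wider WNT pathway was followed through 95 genes in lists by role, of which 63 could be tested. In siUHRF1 + TSA against siCONT 12 rose and 0 fell (limma, adjusted p below 0.05), 19.0% of those tested against 24.2% of all gene names, with a median log2 difference of 0.03 against 0.07 over all gene names. WNT6 and ASCL2, 2 of these 12, were at background in siCONT and entered the test only through groups in which they were higher, and the other 10 were above background on both siCONT arrays. The count was 2 without either siCONT replicate, 22 and 23 without siUHRF1 replicates 1 and 2, and 7 without siUHRF1 + TSA replicate 2. In siUHRF1 against siCONT limma called 0 of them, against 0.643% of all gene names, and 6 (9.52% of those tested) had an unadjusted p below 0.05, against 8.96% of all gene names. In siCONT + TSA against siCONT 3 rose and 0 fell, 4.76% of those tested against 10.8% of all gene names, and the count ran from 0 to 10 when 1 array was left out: 0 without siCONT replicate 1 or 2 or siCONT + TSA replicate 1, 1 without siCONT + TSA replicate 2, and 10 without siUHRF1 replicate 1 or 2. In siUHRF1 + TSA against siCONT + TSA WNT6 and APC2 rose, 3.17% against 3.85%. Against siUHRF1, 7 rose in siUHRF1 + TSA and 2 fell (14.3% against 16.3%). Those that fell were WNT4, which was at background on at least 1 siUHRF1 + TSA array, and WLS, both named after their values were seen. The depletion effects with and without TSA differed past the threshold for 0 pathway genes by limma, with 2 at an unadjusted p below 0.05, which 4.98% of all gene names reached.

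Of 2 DKK co-receptors tested, only KREMEN2, a DKK1 receptor, was called in siUHRF1 + TSA against siCONT, where 24.2% of all gene names were called. KREMEN2 rose there by 0.53 on the log2 scale (limma adjusted p = 0.0133) and by 0.44 in siCONT + TSA against siCONT (adjusted p = 0.0401). Between siUHRF1 + TSA and siCONT + TSA it differed by 0.08 (adjusted p = 0.723). Of 16 receptors and co-receptors, 14 were tested and 0 were called in siUHRF1 + TSA, against 24.2% of all gene names. Of the 10 other secreted or surface antagonists, 2 could be tested and 0 were called.

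Among 19 WNT ligands, 7 were tested and WNT6, WNT10A and WNT11 rose in siUHRF1 + TSA against siCONT. These were 42.9% of those tested, against 24.2% of all gene names. The count includes WNT6, which entered the test only through the siUHRF1 groups, so the share is no support for an excess. A list of 7 also gives an imprecise share. WNT6 had signals of 10.95 and 7.92 in siCONT and 12.7 and 8.95 in siCONT + TSA, at background, and of 29.1 and 38.5 in siUHRF1, 66.6 and 108 in siUHRF1 + TSA and 717 in 5-aza-dC, all above background. WNT6 was at least 6.09-fold higher in siUHRF1 + TSA than in siCONT (adjusted p = 0.00303) and at least 5.38-fold higher than in siCONT + TSA (adjusted p = 0.0119). In siUHRF1 alone it was at least 2.18-fold higher, without passing the threshold (adjusted p = 0.172). WNT6 passed the filter on dim probes only through the siUHRF1 groups, so these p-values are no support for a change. WNT10A rose by 0.94 and WNT11 by 0.64 in siUHRF1 + TSA. Between siUHRF1 + TSA and siCONT + TSA the differences were 0.54 for WNT10A (limma adjusted p = 0.320) and 0.42 for WNT11 (adjusted p = 0.0786).

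All 11 genes of the destruction complex and its transducers were tested, and 4 rose in siUHRF1 + TSA against siCONT, those with the largest differences being APC2, GSK3B and DVL3. These were 36.4% of those tested, against 24.2% of all gene names, and a list of 11 gives an imprecise share. APC2, a relative of APC, had signals of 185 and 181 in siCONT, 272 and 302 in siUHRF1, 176 and 186 in siCONT + TSA, 491 and 569 in siUHRF1 + TSA, and 1657 in 5-aza-dC. It rose 2.94-fold in siUHRF1 + TSA (log2 1.56, SE 0.16, adjusted p = 0.00244). GSK3B, the kinase that marks β-catenin for degradation, rose by 0.57 and DVL3, which relays the receptor signal, by 0.50. In siCONT + TSA against siCONT, DVL3 already differed by 0.49 (limma adjusted p = 0.0337), GSK3B by 0.38 (adjusted p = 0.0671) and APC2 by 0.16 (adjusted p = 0.564). Between siUHRF1 + TSA and siCONT + TSA the differences were 0.01 for DVL3, 0.20 for GSK3B and 1.40 for APC2, and only APC2 was called. CTNNB1, the other gene that rose, was also called in siCONT + TSA against siCONT.

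Of 14 WNT target genes 10 were tested, and AXIN2, NKD2 and ASCL2 rose in siUHRF1 + TSA, 30% of those tested against 24.2% of all gene names. This count includes ASCL2, which entered the test only through siUHRF1 + TSA, so the share is no support for an excess. A list of 10 also gives an imprecise share. AXIN2, a feedback inhibitor and common readout of β-catenin activity, had signals by its brighter probe of 260 and 273 in siCONT, 215 and 517 in siUHRF1, 587 and 656 in siCONT + TSA, 874 and 1187 in siUHRF1 + TSA, and 1525 in 5-aza-dC. It rose by 1.96 (adjusted p = 0.0298) and by 1.23 at its other probe (adjusted p = 0.00512). In siCONT + TSA against siCONT these probes already differed by 1.40 (limma adjusted p = 0.111) and 0.68 (adjusted p = 0.0536). Between siUHRF1 + TSA and siCONT + TSA the differences were 0.56 (adjusted p = 0.598) and 0.55 (adjusted p = 0.162). The probes ranked the siUHRF1 arrays in opposite order, with 493 and 285 at the second probe. ASCL2, a stem cell transcription factor, was at background in siCONT (3.21 and 3.45) and above it in siUHRF1 + TSA (35.4 and 45.7), at least 2.89-fold higher (adjusted p = 0.0135), but it passed the filter only through siUHRF1 + TSA, so its p is no support for a change. NKD2, an antagonist that binds dishevelled, rose by 0.80 at its brighter probe, but differed by -0.03 at the other, dim probe. Between siUHRF1 + TSA and siCONT + TSA its brighter probe differed by 0.27 (limma adjusted p = 0.465).

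Other widely used readouts did not pass the threshold. The difference in siUHRF1 + TSA against siCONT was 0.18 for NKD1 (limma adjusted p = 0.619), -0.58 for MYC (adjusted p = 0.0511) and -0.37 for TCF7 (adjusted p = 0.0813). The second TCF7 probe differed by only -0.02 (adjusted p = 0.902), and the second MYC probe, at background on some arrays, by -0.94 (adjusted p = 0.209). LGR5, an R-spondin receptor, was at background on every array. LEF1, of the 10 TCF/LEF factors and cofactors tested, rose by 0.53 (adjusted p = 0.0161). Between siUHRF1 + TSA and siCONT + TSA it differed by 0.33 (limma adjusted p = 0.178). The called share of this list was 10%, against 24.2% of all gene names.

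**Figure D4:**
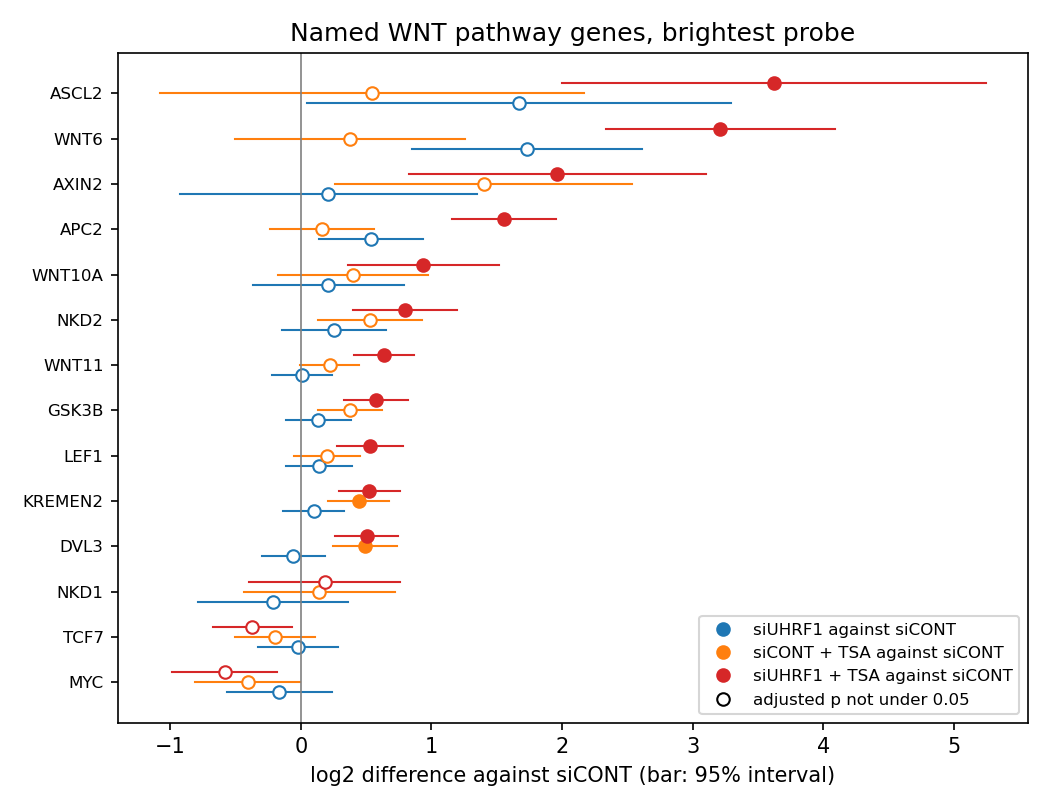
Log2 difference against siCONT of the named WNT pathway genes at their brightest probe, for siUHRF1 (blue), siCONT + TSA (orange) and siUHRF1 + TSA (red); bars are 95% intervals and filled points passed an adjusted p of 0.05. WNT6 and ASCL2 have no array above background in siCONT, so their points are not bounds; APC2 (1.56) and AXIN2 (1.96) have the next largest differences in siUHRF1 + TSA.

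Markers of other cell types also differed between the groups of this cell line. Of 6 fibroblast markers, 1 to 2 were above background on the siCONT arrays, 2 to 3 in siUHRF1 and 2 in siCONT + TSA. In siUHRF1 + TSA 5 were above background on both arrays, COL3A1 being at background. The summed level of these markers was 0.254 to 0.286 times the array's 75th percentile in siCONT and 0.337 to 0.545 times in siUHRF1. It was 0.565 to 0.593 times in siCONT + TSA and 0.940 to 1.17 times in siUHRF1 + TSA. Of 3 endothelial markers, PECAM1 being at background, 1 was above background in siCONT and 2 in siUHRF1, siCONT + TSA, siUHRF1 + TSA and 5-aza-dC. Their summed level was 0.158 to 0.162 times in siCONT, 0.158 to 0.193 in siUHRF1, 0.217 to 0.245 in siCONT + TSA and 0.548 to 0.681 in siUHRF1 + TSA. The summed level of the 12 colorectal epithelial markers was 50.6 to 51.0 times the 75th percentile in siCONT, 55.3 to 62.7 in siUHRF1, 55.7 to 57.1 in siCONT + TSA and 77.4 to 94.7 in siUHRF1 + TSA. Of 4 immune markers, the siRNA arrays had 0 to 2 above background and the 5-aza-dC array had 4, and there their summed level was 0.994 times against 0.117 to 0.192 times on the siRNA arrays. Their part in the results above was not tested.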

How the data were processed

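Total RNA (100 ng) of RKO cells was labelled with Cy3 and hybridized to 1-colour arrays. The authors deposited each spot's processed signal, a linear intensity after background subtraction and detrending by Agilent Feature Extraction 10.7, with no normalization between arrays; the deposited value table holds the same intensity values rounded. The methods name GeneSpring GX, and t-tests or Tukey's test after ANOVA. Here each array's 75th percentile was subtracted from its log2 signals, outlier spots were left out and spots of a probe were averaged. The 23726 probes that exceeded background on both replicates of any siRNA group were tested with limma 3.58.1 in R 4.3.3 (lmFit, eBayes) on these 8 arrays, and the threshold was 0.05 after Benjamini-Hochberg adjustment over all probes. Counts use each gene's brightest probe. The fit was tried on simulated arrays with independent noise, which covered neither the filter on dim probes nor the siRNAs shared between arrays. The number of arrays limits the precision.

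The members and lists were chosen with earlier results of these data known. Named genes are the members, UHRF1, AXIN2, NKD1, LGR5, TCF7 and MYC, per role list up to 3 with the largest rise and 3 with the largest fall in the combination among called genes whose groups did not overlap, and the 3 most correlated with DKK1. The 5-aza-dC array was compared without a test by a 2-fold rule. Same-numbered siUHRF1 and siUHRF1 + TSA arrays share a siRNA (correlation of deviations 0.466), while the other pairs of groups correlated from -0.047 to 0.080.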

Additional observations from a re-analysis of the deposited data

How the results depend on the processing

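Groups of 2 arrays limit every result, signals near background limit most of the antagonists, and no block for slide or scan was possible within the siRNA arrays. Of the 9 antagonists, 1 (DKK1) was called in siUHRF1 + TSA against siCONT. That count was 0 with spike-in scaling, without the filter on dim probes, with only the arrays of the groups compared, and by the methods' t-test with and without adjustment and ANOVA with Tukey's test, and 0 to 1 with 1 array left out. Against siCONT + TSA it was 0 with normexp, spike-in scaling, no filter, a filter on every array, only the arrays compared and the methods' t-test with and without adjustment, and 0 to 1 with 1 array left out. In siCONT + TSA against siCONT the count went from 0 to 1 with only the arrays compared and by the methods' t-test without adjustment, and in siUHRF1 + TSA against siUHRF1 it was 0 to 1 with 1 array left out. The DKK1 differences kept their sign under every alternative in each comparison. The count of pathway genes in siUHRF1 + TSA against siCONT (12) was 4 with normexp, 7 with spike-in scaling, 0 by the methods' t-test with adjustment, and 2 to 23 with 1 array left out. In siUHRF1 against siCONT it was 2 by the methods' t-test without adjustment and 1 by ANOVA with Tukey's test. In siCONT + TSA against siCONT (3) it was 0 with normexp, spike-in scaling or no filter, 1 with quantile normalization, 5 with the trended and robust prior, 5 with any probe of a gene, 31 with only the arrays compared, 13 and 34 by the methods' t-test with and without adjustment, 7 by ANOVA with Tukey's test, and 0 to 10 with 1 array left out. The UHRF1 changes of -2.47 and -3.35 missed the threshold by the methods' t-test with adjustment (adjusted p = 0.468 and 0.159) and passed in the other 22 alternatives. With 5-aza-dC, the count of antagonists past 2-fold (3) was 1 when probes had to be above background on every array compared, and the SFRP1 log2 difference turned to -0.22 with normexp. The causes of these shifts were not tested.

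With the replicate number as a block, DKK1 was called as before in siUHRF1 + TSA against siCONT (adjusted p = 0.0242) and against siCONT + TSA (adjusted p = 0.0317), the pathway counts were 13, 0 and 2, and the block changed no call of an antagonist or of UHRF1. Replicate numbers of the siCONT groups carry no pairing in the labels.

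Over all gene names the calls also moved by over 1.5 times, in both directions. In siUHRF1 + TSA against siCONT the count of 4287 ran from 213 (the methods' t-test with adjustment) to 5862, with 1415 under normexp and 1436 to 5862 with 1 array left out. In siUHRF1 against siCONT 114 ran from 0 (adjusted t-test) to 1421 (t-test without adjustment), with 8 under normexp. In siCONT + TSA against siCONT 1920 ran from 147 to 7796 (t-test without adjustment), with 349 under normexp, 7740 with only the arrays compared and 147 to 3519 with 1 array left out. In siUHRF1 + TSA against siCONT + TSA 683 ran from 0 (adjusted t-test) to 2858 (t-test without adjustment), with 81 under normexp. Between siUHRF1 + TSA and siUHRF1 2893 ran from 1 (adjusted t-test) to 4953, and for the difference between depletion effects 69 ran from 0 to 157.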
